A study of Mus musculus with 9 samples.

Results

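Messenger RNAs for the protein subunits of the mitochondrial ribosome were followed in tumour cells sorted from mouse lung. The members are the genes of the deposited table whose symbol begins with Mrpl (large subunit) or Mrps (small subunit) followed by digits. There are 76 such genes among 24012, of which 47 belong to the large and 29 to the small subunit by name. The pseudogene symbols Mrpl23-ps1, Mrpl48-ps, Mrps36-ps1 and Mrps36-ps2 were left out. The cells are labelled as pancreatic ductal adenocarcinoma (PDAC) lung metastatic tumour cells that express GFP and Gstt1-mCherry, a fluorescent reporter for the glutathione transferase Gstt1. The genotype label of all 9 libraries includes SIRT6F/F with p48-Cre, a Cre driven in the pancreas, and p53F/+. A further allele that it names is not reported here. The cells came from lungs of mice injected through the tail vein. The mCherryLow group (replicates 1, 5 and 6) and the mCherryHigh group (replicates 1, 5 and 6) were sorted on GFP and mCherry at 6 weeks. For the DTC group (replicates 1, 2 and 3) sorting was on GFP, at 5 days. Whether each library stems from its own mouse is not stated, and the p-values below therefore measure only the spread between libraries, which may be technical.

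The mitochondrial ribosome translates the few messages of the mitochondrial genome, all of which encode core subunits of the respiratory chain and of ATP synthase. Its ribosomal RNAs are made in the organelle, whereas every one of its proteins is encoded in the nucleus, made in the cytosol and imported. It carries more protein and less RNA than bacterial ribosomes, and many of its proteins have no bacterial counterpart. Assembly follows an ordered series of steps helped by GTPases, helicases and RNA-modifying enzymes, and ribosomal protein genes for this organelle are known targets of the factors NRF1, GABPA (an ETS family factor) and YY1.

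Library totals recovered from the deposited values ran from 643748 reads (mCherryHigh 1) to 11861241 reads (mCherryLow 6), and the DTC libraries held 923988 to 2052623. Values are CPM, the reads of a gene scaled to a common library total, and a count of 0 allows up to 3 reads, or 0.253 to 4.66 CPM by library. This limit covers counting error only. Gstt1 followed the reporter sort, at 11.9 to 29.4 CPM in mCherryLow, 48.4 to 60.6 CPM in mCherryHigh and 6.09 to 11.2 CPM in DTC. Sirt6 reads lay between 3.41 and 24.9 CPM in the 9 libraries, and all 9 carry the floxed alleles, so there is no level to set them against. The 3 DTC libraries stood apart in several ways. Gm10800, Gm10801 and Lars2 together took 11.8%, 3.47% and 15.1% of their CPM, against 0.127% to 0.585% in the sorted reporter libraries. The summed CPM of 20 macrophage and monocyte markers was 5575 to 10510 in DTC, 610 to 3141 in mCherryLow and 1168 to 1962 in mCherryHigh. Of the 20, 15 lay higher in every DTC library than in any mCherryLow library, beside 39% of all genes tested. Only C1qc and C1qb were at 0 throughout a group, in mCherryHigh. Within DTC, replicate 3 differed from replicates 1 and 2 in its tumour keratins: Krt18, a keratin of ductal cells, stood at 169 CPM there and at 3014 and 3046 CPM in replicates 1 and 2. Krt8, Krt19 and Cdh1 were also lowest there. Other markers of the list did not follow: Epcam was at 16.2 CPM in replicate 3 and at 21.3 and 4.38 CPM in replicates 1 and 2. Sox9 was at 55.2 CPM in replicate 3, below replicates 1 and 2 but above the 32.5 to 51.3 CPM of the reporter libraries. The 10 ductal and tumour cell markers summed to 478 to 6235 CPM in DTC, to 1835 to 2637 CPM in mCherryLow and to 2244 to 6060 CPM in mCherryHigh. None was at 0 throughout a group, though Cldn4 was at 0.761, 0 and 0 CPM in DTC 1, 2 and 3. Of the 10, the DTC libraries all lay below mCherryLow in 2 and above it in 1, beside 14.2% and 39% of all genes tested. Against mCherryHigh they lay below in 4 and above in 1, beside 13.2% and 31.4%. The limma calls in DTC below are therefore also given without replicate 3 where that changes them. The DTC columns were also written with up to 15 significant digits and the others with up to 10, and whether both sets were aligned and counted alike is not given in the sources used here, so a level difference between DTC and the others may include a difference in processing. Time after injection, sorting gate and label code series all separate DTC from the other groups, and their contributions cannot be told apart.

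Members were expressed over a wide range. Per kilobase of transcript, the mean over the 9 libraries was highest for Mrpl33, a small protein of the large subunit with a bacterial counterpart, at 305 CPM per kilobase. Mrpl20, which also has one, followed at 180 CPM per kilobase, then Mrps18a at 153, Mrps14 at 152 and Mrpl52 at 144 CPM per kilobase. The lowest levels were those of Mrpl53 at 2.41, Mrpl23 at 5.55 and Mrpl19 at 6.95 CPM per kilobase. How much of a transcript is unique was measured as the share of its 50-base windows found in no other annotated gene. It was 0% for Mrpl53, whose windows all recur in Gm42688, and 23.6% for Mrpl23, which shares windows with Mrpl23-ps1, so the levels of both are uncertain. Mrpl19 had 59.7%, and 35 members reached 100% while 28 lay under 90%. Library preparation did not mark the strand, so reads of overlapping antisense genes cannot be separated from those of a member.

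Promoter sequences were available for 67 of the 76 members, with 73 entries (RefSeq, GRCm38.p6, 250 bases before to 50 bases after each start). These windows were rich in cytosine and guanine, with a median GC content of 58.3% against 52.7% over all 32851 promoters of the table, and a median of 21 CpG dinucleotides against 7. The ETS motif CCGGAAG, searched like the others on both strands, was in 32.9% of member promoters and in 8.86% of all. The NRF1 motif GCGCANGCG was in 20.5% against 6.25%, and the YY1 motif AAGATGG in 17.8% against 6.34%. At least 1 of the 3 was present in 57.5% of member promoters and in 19.2% of all. Set against the 16934 promoters of genes in the deposited table, the shares were 12.7% for ETS, 9.64% for NRF1, 6.31% for YY1 and 25.2% for any of them. The Sp1 motif GGGCGGG was in 42.5% of member promoters and in 37.7% of those of table genes, and the TATA box TATAAA in 6.85% and 10.3%. The E-box CACGTG was in 9.59% and 8.63%. In 0 member promoters did an ETS match overlap a YY1 match, and in 0 did an NRF1 match overlap either. A match describes letters in a window and is not evidence of binding.

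The windows below, from 100 bases before to 30 bases after the start, belong to members whose values are described further on, and show where those letters lie. Capitals mark matches to the ETS, NRF1 or YY1 motif on either strand. Mrps27 (chr13:99344686-99344815, plus strand) was the member with the smallest p between mCherryHigh and mCherryLow, Mrpl49 (chr19:6057726-6057855, minus strand) and Mrpl51 (chr6:125192100-125192229, plus strand) changed in DTC, Mrpl12 (chr11:120484537-120484666, plus strand) and Mrpl45 (chr11:97315616-97315745, plus strand) carry NRF1 matches, and Mrps18a (chr17:46110904-46111033, plus strand) carries an ETS and a YY1 match.
Mrps27: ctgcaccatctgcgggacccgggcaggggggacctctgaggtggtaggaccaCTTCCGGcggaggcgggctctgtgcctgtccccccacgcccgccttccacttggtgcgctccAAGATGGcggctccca
Mrps18a: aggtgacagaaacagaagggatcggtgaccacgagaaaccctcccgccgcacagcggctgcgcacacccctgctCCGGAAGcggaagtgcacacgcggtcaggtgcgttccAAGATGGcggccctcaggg
Mrpl49: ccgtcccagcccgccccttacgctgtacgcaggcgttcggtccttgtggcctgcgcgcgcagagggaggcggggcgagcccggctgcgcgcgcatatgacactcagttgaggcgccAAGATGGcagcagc
Mrpl51: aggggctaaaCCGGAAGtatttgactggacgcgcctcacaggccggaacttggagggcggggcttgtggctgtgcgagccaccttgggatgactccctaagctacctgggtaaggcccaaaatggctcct
Mrpl12: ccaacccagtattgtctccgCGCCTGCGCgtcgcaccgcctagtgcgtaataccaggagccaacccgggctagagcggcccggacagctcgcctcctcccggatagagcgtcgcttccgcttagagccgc
Mrpl45: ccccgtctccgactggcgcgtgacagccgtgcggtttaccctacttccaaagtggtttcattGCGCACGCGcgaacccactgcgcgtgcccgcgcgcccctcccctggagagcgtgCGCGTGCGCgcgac
In Mrps27, Mrps18a and Mrpl49 the YY1 letters in the printed window fall after the start. A second YY1 match of Mrpl49 lies upstream, outside that window.

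Many members also share their upstream region with a neighbour. Another gene's start lay on the opposite strand within 1000 bases upstream in 27 of the 73 member entries (37.0%), against 11.3% of all promoters and 14.3% of those of table genes. Mrpl46 and Mrps11 are such a pair within the family, one of each subunit, with starts 42 bases apart. The stretch that holds both, from 30 bases inside Mrpl46 on the left to 30 bases inside Mrps11 on the right, has none of the ETS, NRF1 or YY1 letters. A YY1 match counted for Mrps11 lies 106 bases before its start, outside that stretch.
Mrpl46 and Mrps11: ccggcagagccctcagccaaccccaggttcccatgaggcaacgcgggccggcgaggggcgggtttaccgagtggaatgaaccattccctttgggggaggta
It lies at chr7:78783060-78783160 on the plus strand of GRCm38.p6. Mrpl46 was at 62.9, 56.6 and 40.4 CPM in mCherryLow 1, 5 and 6, at 29.5, 27.5 and 35.3 CPM in mCherryHigh 1, 5 and 6, and at 39.6, 28.7 and 27.1 CPM in DTC 1, 2 and 3. Mrps11 was at 49.7, 49.5 and 25.8 CPM, at 17.1, 25.3 and 24.2 CPM, and at 25.1, 30.2 and 24.9 CPM in the same order. For both genes every mCherryHigh library lay below every mCherryLow library, narrowly so for Mrps11, and neither difference passed the test (limma adjusted p = 0.533 for Mrpl46 and 0.563 for Mrps11). Of the Mrps11 windows, 87.5% were unique and the others were shared with Mrpl46. Reads there cannot be assigned to a single gene, so the values of the pair are not fully independent. The pair was singled out for its shared upstream region after its values were seen.

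In cells with high Gstt1 reporter the family as a whole lay lower than in cells with low reporter, by a modest amount that no single member carried past the test. The 76 members summed to 5467, 5515 and 4601 CPM in mCherryLow 1, 5 and 6, and to 4261, 3662 and 4053 CPM in mCherryHigh 1, 5 and 6. No mCherryHigh library reached the lowest mCherryLow library. The means were 5194 ± 515 CPM and 3992 ± 304 CPM (SD, n = 3 each), a ratio of 0.769. The large subunit sum was 3418 ± 274 CPM in mCherryLow against 2619 ± 121 CPM in mCherryHigh, and the small subunit sum 1777 ± 246 and 1373 ± 208 CPM (SD, n = 3). Small subunit sums overlapped, since mCherryHigh 1 stood at 1594 CPM and mCherryLow 6 at 1494 CPM. The ratio of large to small subunit sums was 1.94 ± 0.136 in mCherryLow and 1.93 ± 0.226 in mCherryHigh (SD, n = 3), so the balance of the subunits differed by less than its spread.

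**Figure D1:**
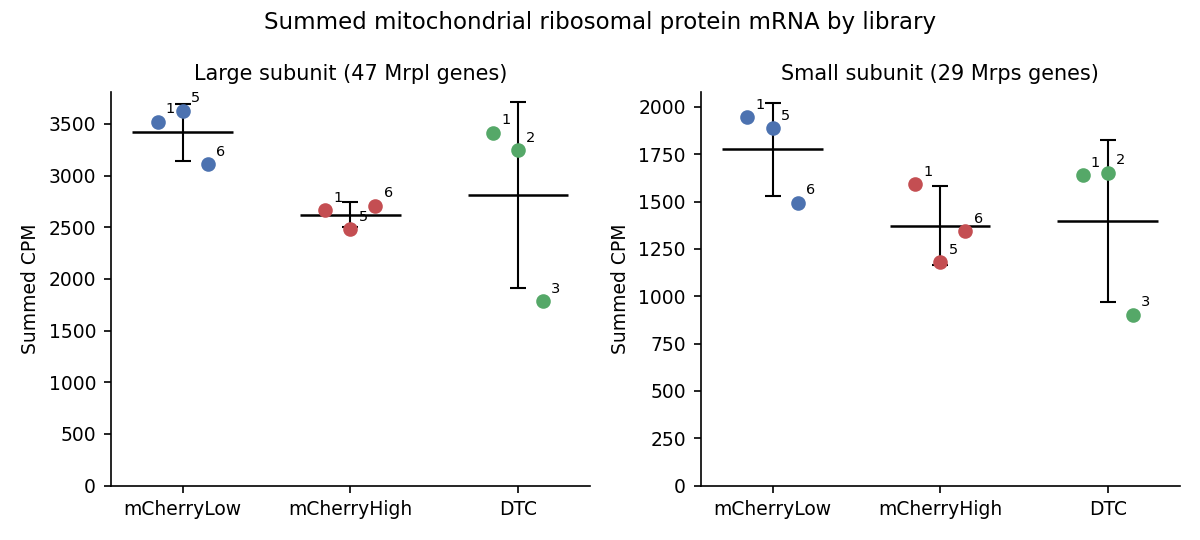
Summed CPM of the large subunit members (left) and small subunit members (right) in each library, by group on the horizontal axis. Points are libraries with their replicate number, lines are means and bars are SD (n = 3). The mCherryHigh libraries lie between 2480 and 2708 CPM for the large subunit, below the mCherryLow range of 3107 to 3626 CPM, and DTC 3 is the lowest library in both plots.

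Testing with limma on log2(CPM + 1) covered 75 members; Mrpl53 did not reach 1 CPM in 3 or more of these 6 libraries. At an adjusted p under 0.05, 0 members were called higher and 0 lower, beside 0% of all 15437 genes tested, and the smallest adjusted p of a member was 0.444. At an unadjusted p under 0.05, 0 members were higher (6.08% of all genes were) and 9 were lower (3.3% of all genes were). On the recovered reads, edgeR called 0 in either direction, beside 0% of all genes. At an unadjusted edgeR p under 0.05, 16 members were lower and 0 higher, beside 686 and 535 of all 15437 genes. DESeq2 called 1 member lower, Mrps27 (adjusted p = 0.0163), and 0 higher, beside 0.641% and 0.317% of all genes. By direction alone, 69 of the 75 members (92%) had a lower mean in mCherryHigh, beside 43.6% of all genes tested. The median member difference was -0.33 on the log2(CPM + 1) scale, a ratio of 0.798, where the median of all genes was 0.09. The lean was alike in both subunits, with 42 of 46 large subunit members lower (median -0.35) and 27 of 29 small subunit members lower (median -0.32). In 28 members (37.3%) every mCherryHigh library lay below every mCherryLow library, beside 5.78% of all genes, and in 0 members was the reverse true, beside 10.2%. A complete separation of 3 libraries from 3 has an exact two-sided permutation p of 0.1, the smallest this design can give.

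**Figure D2:**
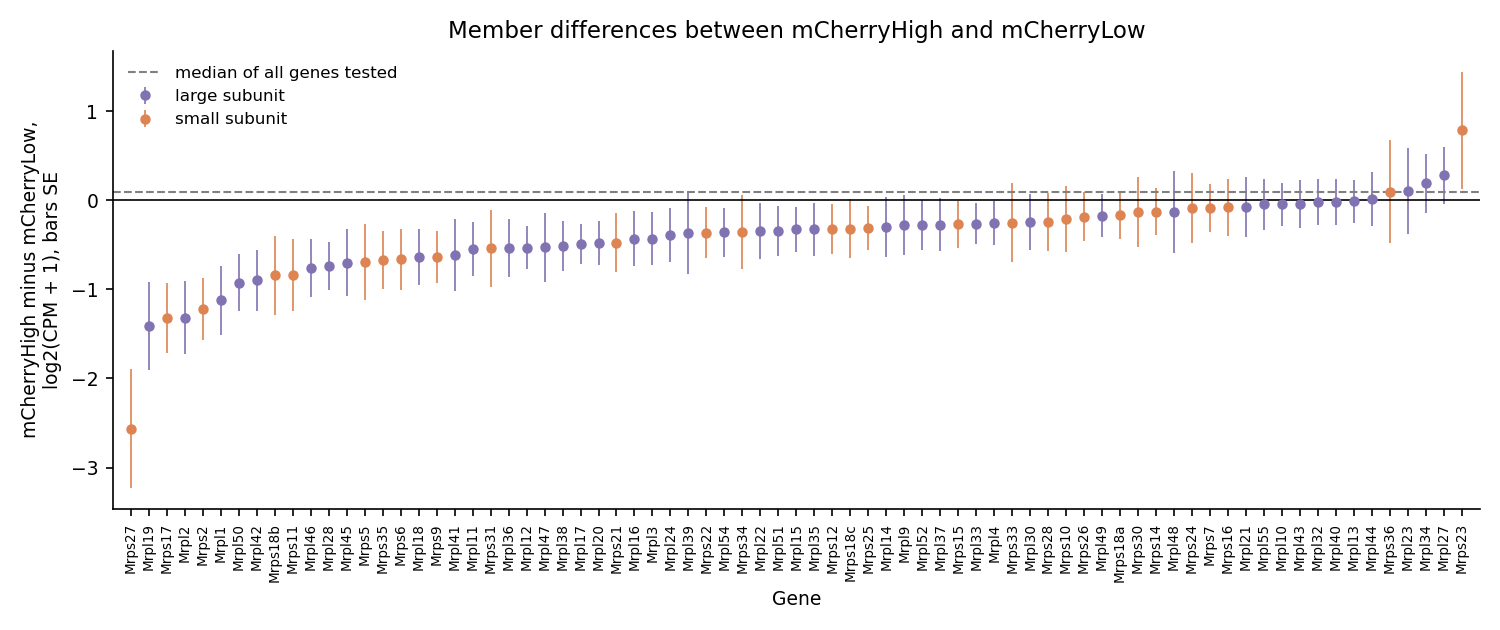
Difference of each tested member between mCherryHigh and mCherryLow on the log2(CPM + 1) scale, ordered from lowest to highest, with bars of 1 SE and colours for the subunits. The dashed line is the median of all genes tested, 0.09; 69 of 75 points lie below 0.

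The direction held library by library. Across the 9 pairings of 1 mCherryHigh with 1 mCherryLow library, which share libraries and are not independent, the members lower in mCherryHigh numbered between 43 and 73 of 75, with medians between -0.57 and -0.11. Codes in the sample descriptions, whose meaning is not stated, allow a look within a series. In series CFa10 (mCherryHigh 1 against mCherryLow 1) 50 of 75 members were lower with a median of -0.44. In series CFa12 (mCherryHigh 5 against mCherryLow 5 and 6) 73 of 75 were lower with a median of -0.43. The third series, CFa13, holds mCherryHigh 6 alone. Nuclear-encoded respiratory chain subunits, most of which join proteins made by the mitochondrial ribosome, leaned the same way, with 70 of 77 lower (median -0.22). Cytosolic ribosomal proteins did too, with 58 of 72 lower and a median of -0.38, and of both lists limma called 0 genes. At an unadjusted limma p under 0.05, 2 of the 77 and 5 of the 72 were lower, beside 3.3% of all genes. In neither list was a gene higher at that level, beside 6.08% of all genes. With edgeR 0 of either list were called, beside 0% of all genes. DESeq2 called 0 respiratory chain genes and 2 cytosolic ribosomal protein genes lower, beside 0.641% of all genes. Among cell type markers, the sum of 11 endothelial genes was 22.9 to 37.0 CPM in mCherryLow against 47.7 to 77.7 CPM in mCherryHigh, with 3 of the 11 above mCherryLow in every library and 0 at 0 throughout. The sum of 9 fibroblast and pericyte genes was 82.4 to 153 CPM and 154 to 195 CPM, with 1 of the 9 so separated and 0 at 0 throughout. Of all genes tested, 10.2% were so separated. The sums of macrophage, lung epithelial, ductal and lymphoid markers overlapped. The part of these markers in the member differences was not tested.

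Mrps27 showed the widest gap. It encodes a pentatricopeptide repeat protein of the small subunit that has no bacterial counterpart. It stood at 31.2, 56.9 and 27.6 CPM in mCherryLow 1, 5 and 6 and at 1.55, 10.4 and 7.87 CPM in mCherryHigh 1, 5 and 6. The groups did not overlap, though the value of mCherryHigh 1 is a single read. The log2 difference was -2.56 ± 0.67 (SE; adjusted p = 0.444), and -1.90 without mCherryHigh 1. Of its windows, 84.8% were unique, the others being shared with 6430562O15Rik. Ptcd2, another pentatricopeptide repeat gene, starts 108 bases from Mrps27 on the opposite strand, and was at 54.3 ± 17.4 CPM in mCherryLow against 27.7 ± 1.55 CPM in mCherryHigh (SD, n = 3). Such neighbours of Mrpl2 and Mrpl50, members described below, did not fall alike. Klc4, beside Mrpl2, was at 61.9 ± 20.2 and 79.9 ± 39.2 CPM, and Zfp189, beside Mrpl50, at 11.4 ± 3.25 and 10.2 ± 0.682 CPM (SD, n = 3). Whether neighbours move together was not tested.

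By p, Mrps2 and Mrps17, small subunit proteins with bacterial counterparts, came next. By size the next was Mrpl19 (-1.41 ± 0.50, SE; adjusted p = 0.488), whose values are given with those of DTC. Mrps2 was at 64.4, 52.0 and 44.9 CPM in mCherryLow against 17.1, 23.7 and 27.5 CPM in mCherryHigh, a log2 difference of -1.22 ± 0.35 (SE; adjusted p = 0.456). Mrps17 was at 128.7, 108.4 and 50.4 CPM in mCherryLow against 32.6, 34.4 and 38.3 CPM in mCherryHigh, a difference of -1.32 ± 0.40 (SE; adjusted p = 0.480). In both genes all mCherryHigh libraries were below all mCherryLow libraries, and mCherryLow 6 was the closest. Of the 5 members with the smallest p, 2 were of the large subunit: Mrpl2, whose bacterial counterpart sits beside the peptidyl transferase centre, and Mrpl50, a protein without one. Mrpl2 was at 84.3, 116.5 and 47.1 CPM in mCherryLow against 26.4, 40.9 and 26.3 CPM in mCherryHigh (-1.31 ± 0.41, SE; adjusted p = 0.484). Mrpl50 was at 101.4, 74.3 and 58.2 CPM and at 34.2, 44.6 and 40.8 CPM (-0.92 ± 0.32, SE; adjusted p = 0.488).

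The 6 members with a higher mean in mCherryHigh all overlapped between the groups. Mrps23 ranged from 10.6 to 54.1 CPM in mCherryLow and from 24.2 to 63.7 CPM in mCherryHigh, and replicate 1 was the highest library of each group (log2 difference 0.79 ± 0.66, SE; adjusted p = 0.758). Mrpl27, whose bacterial counterpart reaches into the peptidyl transferase centre, was at 45.4 ± 7.38 and 56.1 ± 12.8 CPM (SD, n = 3; adjusted p = 0.838). Mrpl34 was at 37.5 ± 8.45 and 42.7 ± 7.39 CPM (SD, n = 3; adjusted p = 0.911). Mrpl23 and Mrps36, both under 8 CPM in every library of the 2 groups, had adjusted p of 0.975 and 0.979. Mrps36 is named as a ribosomal protein but is now counted with the 2-oxoglutarate dehydrogenase complex. The sixth, Mrpl44, differed by 0.02.

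Against mCherryLow, the DTC libraries showed a few individual changes on top of a lean of the family. On the CPM scale as deposited, the size of that lean rested largely on 1 library, DTC 3. Without it the median member still lay below the median of all genes, as given below. Mrpl49, Mrpl4, Mrps27 and Mrpl28 fell and Mrpl23 rose. Without DTC 3 the calls of Mrps27 and Mrpl28 were lost. Mrpl4, Mrps27 and Mrpl28 also lost theirs without any 1 of the mCherryLow libraries, which left 1 lower member, and Mrpl4 and Mrps27 without DTC 1 (2 lower members). Without DTC 2 there were 7. For fits without a single library, the share of all genes called is given only for DTC 3, below. The summed members were 5054, 4899 and 2685 CPM in DTC 1, 2 and 3, against 4601 to 5515 CPM in mCherryLow, so that DTC 3 alone lay outside the mCherryLow range. Of the 76 members, DTC 3 was the lowest of the 3 DTC libraries in 66 and the lowest of all 9 libraries in 49. In these bulk libraries fewer tumour cells and less RNA per cell cannot be told apart. All 76 members were tested: limma called 1 higher, beside 34.2% of all 18701 genes, and 4 lower, beside 8.87%. By direction 57 of 76 were lower, with a median of -0.46, where 37.4% of all genes were lower and their median was 0.59. In 24 members every DTC library lay below every mCherryLow library, beside 14.2% of all genes, and in 6 every one lay above, beside 39%. The subunits leaned alike, with 34 of 47 large subunit members lower (median -0.41) and 23 of 29 small subunit members (median -0.57). Without DTC 3 there were 2 members higher and 2 lower, beside 30.9% and 7.02% of all genes. The median was then -0.10, where that of all genes was 0.60, and 46 of 76 members were lower, beside 35.5% of all genes. Each library against the mCherryLow mean gave medians of -0.14 for DTC 1, -0.13 for DTC 2 and -1.17 for DTC 3. Markers of other cells moved with this comparison. Macrophage genes are given above; endothelial genes summed to 274 to 627 CPM in DTC (10 of 11 above every mCherryLow library), lung epithelial genes to 172 to 518 CPM (7 of 10), lymphoid genes to 94.0 to 421 CPM (8 of 12) and neutrophil genes to 48.7 to 157 CPM (5 of 7), where mCherryLow reached 31.4, 17.6 and 11.7 CPM for the last 3. Of all genes tested, 39% lay above every mCherryLow library in this way. None of these lists had a gene at 0 throughout DTC. Their part in the member differences, and that of the keratins of DTC 3, was not tested.

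**Figure D3:**
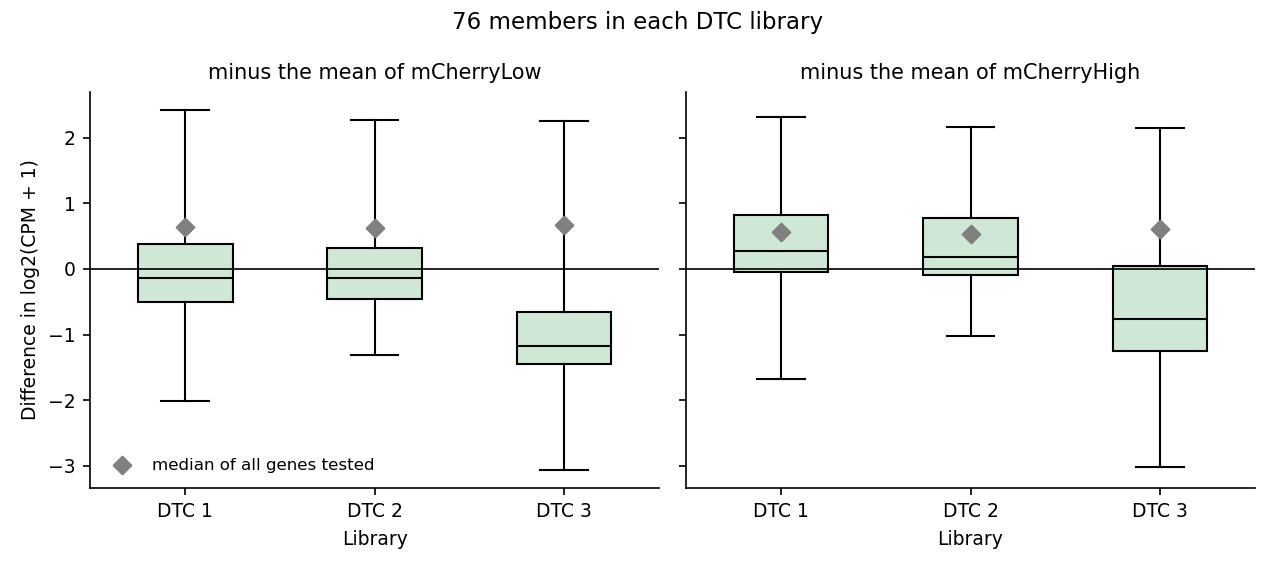
Differences of the 76 members in each DTC library from the mean of mCherryLow (left) and of mCherryHigh (right), in log2(CPM + 1). Boxes span the quartiles with the median as a line, whiskers reach the lowest and highest member, and diamonds are the median of all genes tested; the DTC 3 medians are -1.17 and -0.76, and those of DTC 1 and 2 lie between -0.14 and 0.27.

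The count depended on the test and its scaling. The median of all genes was 0.59 in DTC as deposited, and tests that centre the libraries moved the members down with it: edgeR on the recovered reads called 1 member higher and 22 lower, beside 24.4% and 16.6% of all genes, and DESeq2 also called 1 and 22, beside 27.5% and 15.7%. Relative to the median of all genes, the median member was 1.06 log2 units lower. Members with fewer unique windows were less low: the median was -0.18 for the 28 with under 90% unique windows and -0.55 for the 48 others, a difference that was not tested.

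Mrpl49, a large subunit protein without a bacterial counterpart, fell the most among called members. It was at 79.9, 77.0 and 88.4 CPM in mCherryLow, at 69.9, 68.7 and 79.4 CPM in mCherryHigh, but at 22.1, 45.3 and 18.4 CPM in DTC. Every DTC library was below all 6 others, DTC 2 being the nearest to them. The log2 difference from mCherryLow was -1.59 ± 0.43 (SE; adjusted p = 0.0116), and -1.34 without DTC 3 (adjusted p = 0.0302). Its upstream neighbour Fau, which starts 192 bases away on the opposite strand and encodes a cytosolic ribosomal protein fused to a ubiquitin-like domain, was at 3.18 ± 0.898 CPM in mCherryLow, 4.49 ± 3.13 CPM in mCherryHigh and 171.6 ± 25.9 CPM in DTC (SD, n = 3). Whether that gap reflects a difference in how the DTC libraries were aligned or counted was not tested. Mrpl4, whose bacterial counterpart lines the exit tunnel for the new protein, was at 107.7, 94.6 and 85.1 CPM in mCherryLow against 44.9, 51.2 and 44.4 CPM in DTC. The 3 DTC values lay close together, and the difference was -1.01 ± 0.35 (SE; adjusted p = 0.0358; -0.98 and 0.0437 without DTC 3).

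Mrps27, lowest in mCherryHigh, was also low in DTC, at 8.37, 23.4 and 9.74 CPM in DTC 1, 2 and 3. All 3 values lay below the mCherryLow range of 27.6 to 56.9 CPM, a difference of -1.48 ± 0.54 (SE; adjusted p = 0.0430; -1.32 and 0.101 without DTC 3). Mrpl28, with a bacterial counterpart, was at 140.9, 174.1 and 234.5 CPM in mCherryLow against 115.7, 104.3 and 37.9 CPM in DTC. DTC 3 was far below the rest, and the difference of -1.20 ± 0.45 (SE; adjusted p = 0.0488) was -0.70 without it (adjusted p = 0.117). Mrps2, at 22.8, 36.5 and 12.99 CPM in DTC, was not called by limma (-1.22 ± 0.47, SE; adjusted p = 0.0525; -0.86 and 0.128 without DTC 3) but was called lower by edgeR (adjusted p = 0.0213) and DESeq2 (adjusted p = 0.0102).

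Mrpl23, whose bacterial counterpart borders the end of the exit tunnel, was the member called higher. It was at 0.975, 1.69 and 0.590 CPM in mCherryLow, at 1.55, 0.306 and 2.15 CPM in mCherryHigh, but at 9.89, 8.77 and 8.66 CPM in DTC, with no overlap. The difference was 2.31 ± 0.54 (SE; adjusted p = 0.0052), and 2.34 without DTC 3 (adjusted p = 0.0103). These DTC values are 13, 18 and 8 reads, and with only 23.6% of its windows unique they may include reads of its copies. Under quantile normalization the difference was 0.36 (adjusted p = 0.637). Mrpl53, at 2.28, 5.36 and 2.16 CPM in DTC against 0 to 1.22 CPM in mCherryLow, did not pass (1.34 ± 0.53, SE; adjusted p = 0.0609). Nor did Mrpl51 (0.79 ± 0.35; adjusted p = 0.0855), Mrps35 (0.79 ± 0.36; adjusted p = 0.0961) and Mrpl48 (0.96 ± 0.48, SE; adjusted p = 0.126), in all of which the groups were fully separated.

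Mrpl12, the stalk protein that recruits translation factors and is also reported to bind the mitochondrial RNA polymerase, differed sharply among the DTC libraries. It was at 124.3, 127.7 and 95.5 CPM in mCherryLow, at 76.1, 85.1 and 76.8 CPM in mCherryHigh, and at 247.4, 213.9 and 41.1 CPM in DTC 1, 2 and 3. DTC 1 and 2 were the highest of all libraries and DTC 3 the lowest. Over all 3 the difference from mCherryLow was 0.18 ± 0.58 (SE; adjusted p = 0.827). Without DTC 3 it was 1.00 (adjusted p = 0.0281), the second of the 2 members then called higher beside Mrpl23. Mrpl11, at the base of the same stalk, was at 57.8, 44.3 and 20.6 CPM in DTC and 43.3 to 61.4 CPM in mCherryLow (adjusted p = 0.418). Mrps12, the counterpart of a protein of the bacterial decoding centre, was at 115.7, 81.4 and 35.7 CPM in DTC and 53.0 to 71.7 CPM in mCherryLow (adjusted p = 0.745), again with DTC 3 lowest. Without DTC 3 its difference from mCherryLow went from 0.20 to 0.68 (adjusted p = 0.159) and that of Mrpl11 from -0.48 to -0.06 (adjusted p = 0.914).

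**Figure D4:**
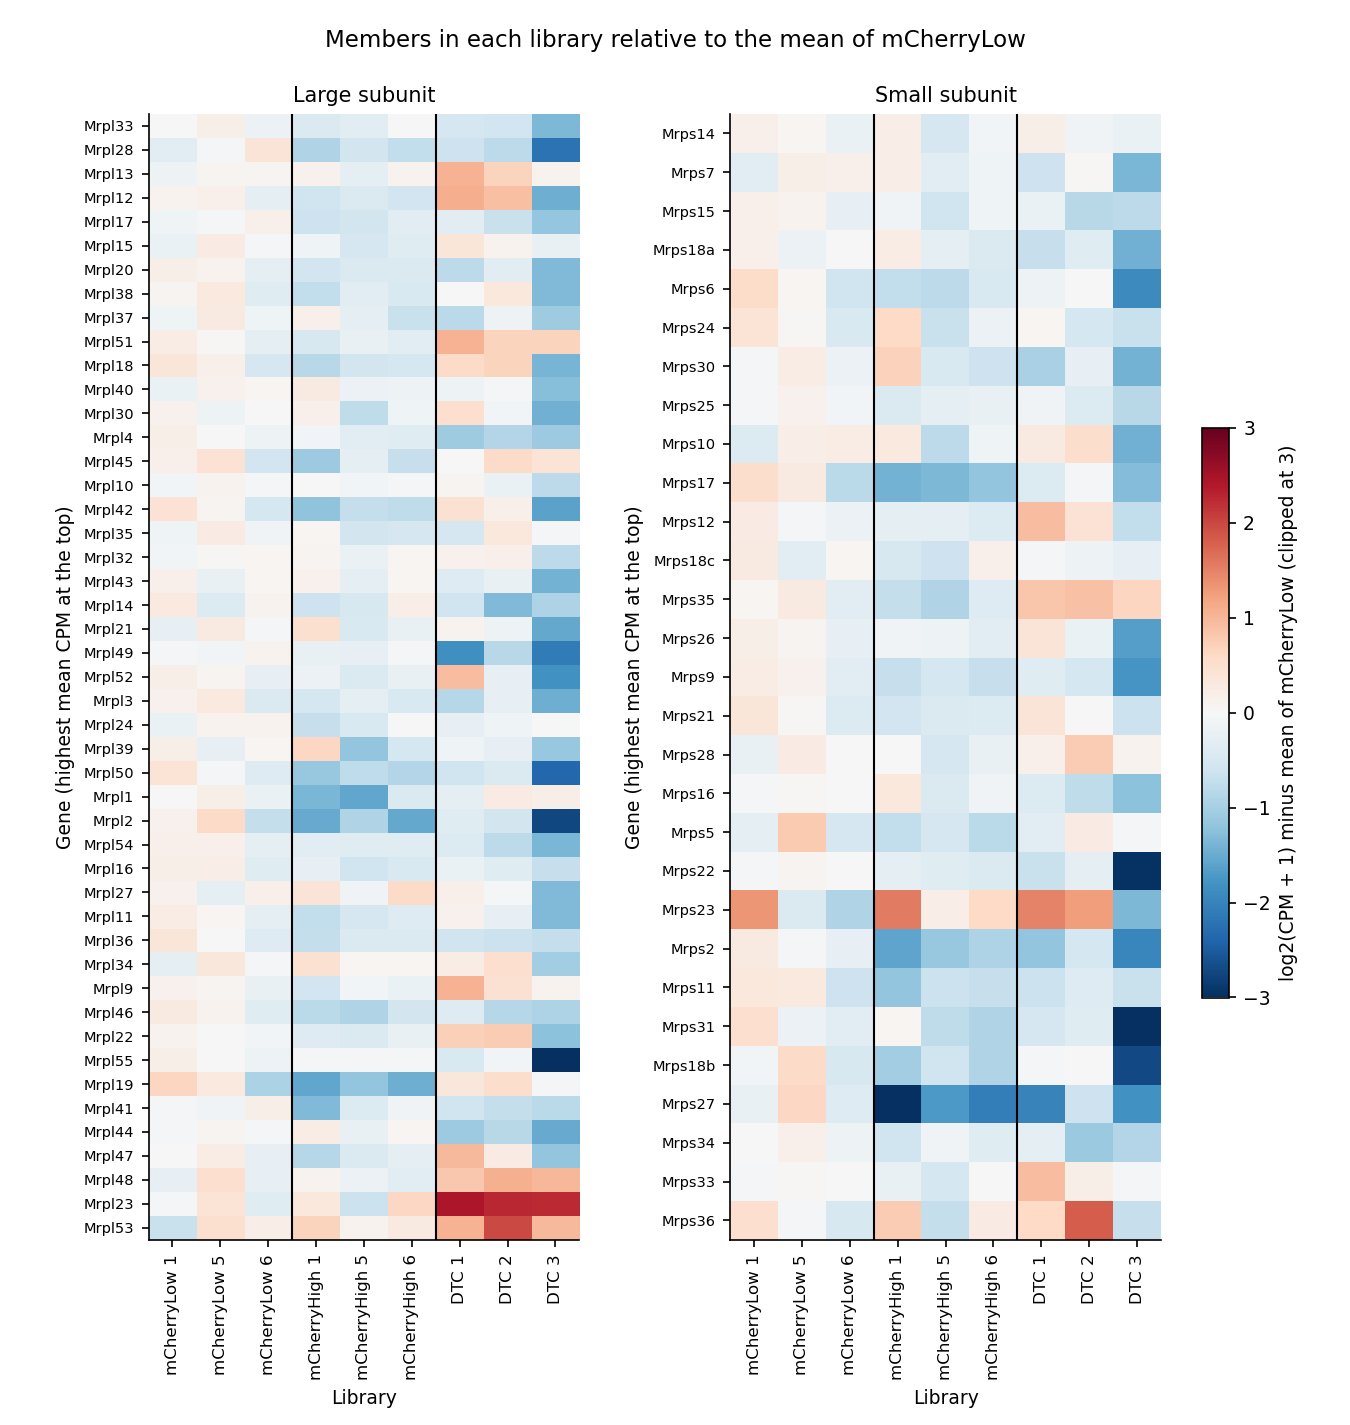
Heat map of every member in every library, as log2(CPM + 1) minus the mean of the mCherryLow libraries, for the large subunit (left) and small subunit (right), with genes ordered by mean CPM and black lines between groups. Blue is lower and red higher, clipped at 3. Most rows are pale blue in mCherryHigh, DTC 3 is the bluest column, and Mrpl23, Mrpl51 and Mrps35 are red in all 3 DTC libraries.

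The 3 paralogues of one bacterial small subunit protein, Mrps18a, Mrps18b and Mrps18c, differ in place, the first being built into the large subunit and the others into the small, and limma called none of them in any comparison. Mrps18a was at 114 ± 13.4 CPM in mCherryLow, 104 ± 26.4 CPM in mCherryHigh and 66.4 ± 23.7 CPM in DTC (SD, n = 3), and its DTC libraries all lay below mCherryLow (-0.83, limma adjusted p = 0.101; -0.53 without DTC 3). On the recovered reads it was called lower in DTC than in mCherryLow by edgeR (adjusted p = 0.0221) and DESeq2 (adjusted p = 0.0184). Mrps18b, with 13% unique windows, was at 28.0 ± 11.2, 14.5 ± 2.54 and 18.5 ± 13.2 CPM, and its mCherryHigh libraries all lay below mCherryLow (adjusted p = 0.592). Mrps18c was at 68.7 ± 14.4, 55.7 ± 17.0 and 61.2 ± 4.06 CPM with overlap throughout. No difference among the 3 was tested. Mrps6 and Mrps28, other small subunit members, were called by limma, edgeR or DESeq2 in no DTC comparison: Mrps6 was at 101 ± 38.6, 60.7 ± 7.87 and 69.7 ± 39.2 CPM, and Mrps28 at 40.5 ± 6.67, 34.2 ± 6.16 and 52.3 ± 14.2 CPM in mCherryLow, mCherryHigh and DTC (SD, n = 3).

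Set against mCherryHigh, the same DTC libraries had higher levels of Mrps35, Mrpl19, Mrpl51 and Mrpl23 and a lower level of Mrpl49. The comparison shares its DTC libraries with the one above, and its mCherryHigh libraries with the first, so the 3 are not independent. Of 76 members, 4 were called higher, beside 23% of all 19700 genes, and 1 lower, beside 7.19%. The family was split, with 34 higher and 42 lower (36.6% of all genes were lower) and a median of -0.08, where the median of all genes was 0.55. In 11 members the DTC libraries all lay above mCherryHigh, beside 31.4% of all genes, and in 6 all lay below, beside 13.2%. The sign of the median turned on DTC 3: without it, 24 of 76 members were lower, the median was 0.22, where that of all genes was 0.53, and 5 members were called higher and 0 lower, beside 14.8% and 5.1% of all genes. It also turned when CPM were rescaled without Gm10800, Gm10801 and Lars2, a choice made after the data were seen, to 0.055. Uniqueness also moved with it, the 28 members with under 90% unique windows having a median of 0.33 and the other 48 a median of -0.21, a difference that was not tested. On the recovered reads, edgeR called 0 members higher (3 at an unadjusted p under 0.05) and 3 lower (Mrpl4, Mrpl44 and Mrpl49), beside 15.9% and 10.8% of all genes. DESeq2 called Mrps35 and Mrpl19 higher and Mrpl49 and Mrpl44 lower, beside 21.3% and 10.7%. At an unadjusted p under 0.05, limma had 7 members higher and 2 lower, beside 30.9% and 11.6%. The members called higher numbered 0 without DTC 1, 2 without DTC 2, 1 without mCherryHigh 5 and 2 without mCherryHigh 6. The share of all genes called in those fits is not given here. The call of Mrpl49 was lost without any of DTC 1, DTC 3, mCherryHigh 5 and mCherryHigh 6.

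Mrps35, a small subunit protein without a bacterial counterpart, was at 32.6, 28.6 and 41.3 CPM in mCherryHigh and 96.7, 100.8 and 85.5 CPM in DTC. The 3 DTC values were above all 6 others, since mCherryLow reached 65.3 CPM, and the log2 difference from mCherryHigh was 1.45 ± 0.38 (SE; adjusted p = 0.0157). Mrpl19, which has a bacterial counterpart, was at 12.4, 16.3 and 13.3 CPM in mCherryHigh and 49.5, 56.03 and 36.8 CPM in DTC, a difference of 1.68 ± 0.46 (SE; adjusted p = 0.0188). Its mCherryLow values of 60.9, 48.0 and 19.6 CPM spanned those of DTC. Mrpl51, a protein without a bacterial counterpart, was at 49.7, 59.8 and 55.8 CPM in mCherryHigh and 146.1, 111.6 and 111.5 CPM in DTC (1.14 ± 0.35, SE; adjusted p = 0.0320). Without DTC 3 these 3 genes kept their calls (adjusted p = 0.0296 for Mrps35, 0.0293 for Mrpl19 and 0.0414 for Mrpl51), and Mrpl12 (1.53, adjusted p = 0.0191) and Mrpl18 (1.26, adjusted p = 0.0342) joined them. Mrpl18 was chosen after its values were seen.

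Mrpl23 (2.20 ± 0.65, SE; adjusted p = 0.0261) was also called higher than in mCherryHigh, and without DTC 3 the difference was 2.24 (adjusted p = 0.0539). The Mrpl49 difference was -1.42 ± 0.45 (SE; adjusted p = 0.0342; -1.17 and 0.0838 without DTC 3). Mrpl45, which ties the ribosome to the inner membrane, came close, with 34.2, 60.1 and 45.6 CPM in mCherryHigh and 75.4, 111.1 and 99.6 CPM in DTC (1.03 ± 0.39, SE; adjusted p = 0.0664). Mrpl44, a large subunit protein with a ribonuclease III fold, was at 45.0, 33.2 and 40.0 CPM in mCherryHigh and 17.5, 21.4 and 12.99 CPM in DTC. Its DTC libraries lay below all 6 others, but limma called it neither against mCherryHigh (-1.16 ± 0.46, SE; adjusted p = 0.0768) nor against mCherryLow (-1.14 ± 0.44, SE; adjusted p = 0.0526). On the recovered reads it was called lower in both comparisons, against mCherryHigh by edgeR (adjusted p = 0.0410) and DESeq2 (0.0317) and against mCherryLow by edgeR (0.0196) and DESeq2 (0.0073). Mrpl4, Mrpl33, Mrpl54 and Mrpl55 were also below mCherryHigh in every DTC library without a limma call (adjusted p = 0.136 for Mrpl4, 0.291 for Mrpl33, 0.396 for Mrpl54 and 0.233 for Mrpl55). Of these, edgeR called Mrpl4 (adjusted p = 0.0454), and DESeq2 called none of the 4.

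**Figure D5:**
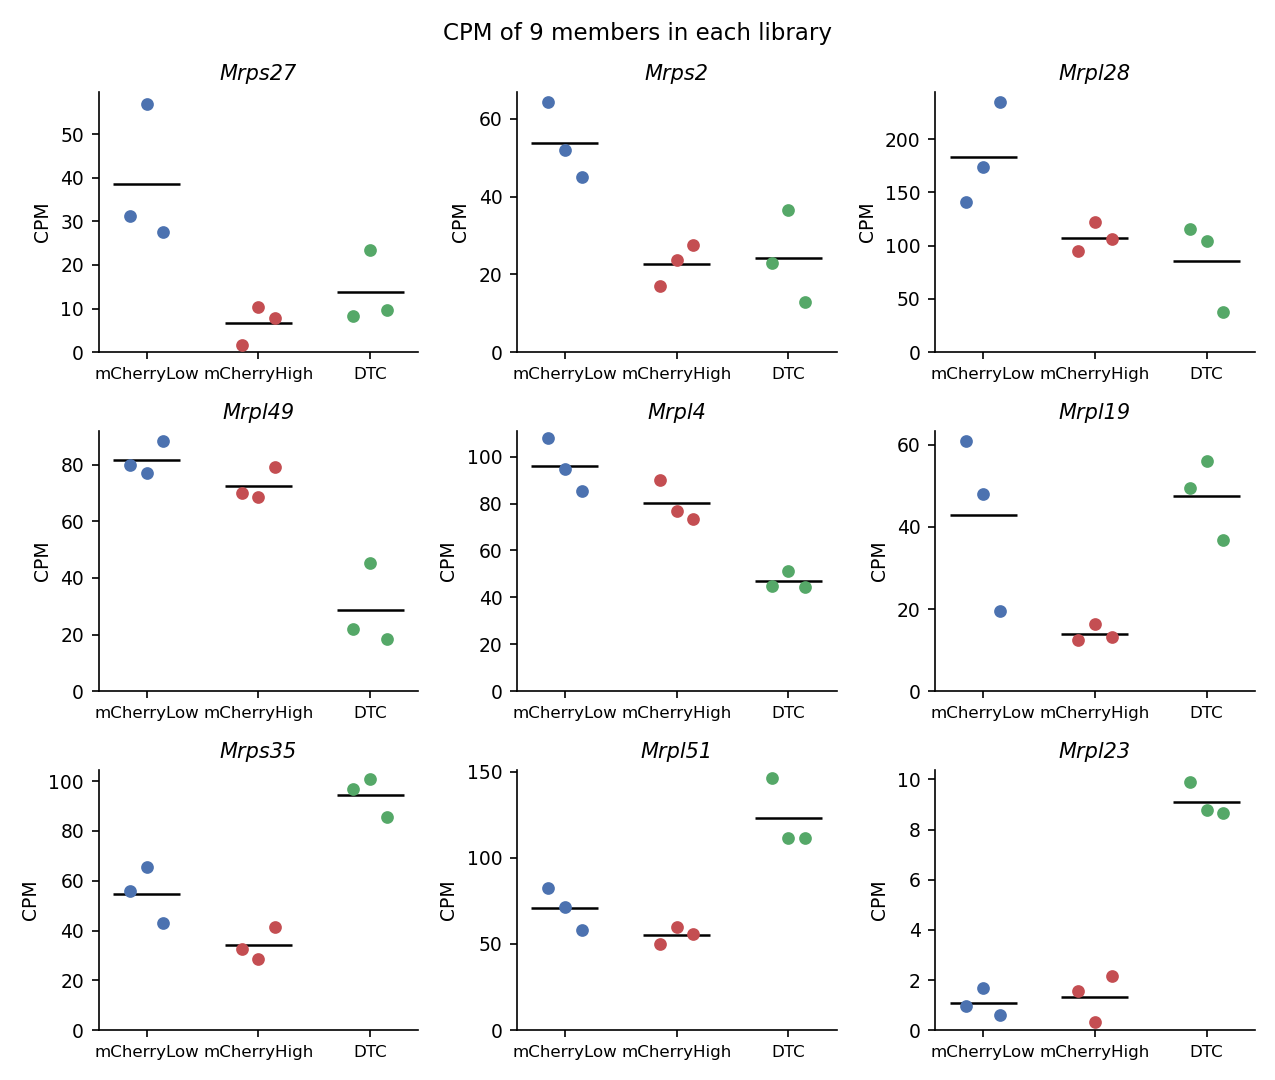
CPM of 9 members in each library by group, each on its own axis from 0; points are libraries and lines are means (n = 3). Mrps27 and Mrps2 are high in mCherryLow, Mrpl49 and Mrpl4 are low in DTC, Mrpl19 is low in mCherryHigh, and Mrps35, Mrpl51 and Mrpl23 are high in DTC.

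Proteins of the mitochondrial ribosome that carry other names numbered 6 in a fixed list: Dap3, Ptcd3, Chchd1, Aurkaip1, Ict1 and Gadd45gip1. The list is not complete, since Mrp63, which the symbol rule also misses, is not in it. Mrp63 was at 48.6 to 74.6 CPM in mCherryLow, 43.4 to 74.6 CPM in mCherryHigh and 20.6 to 48.2 CPM in DTC. Between mCherryHigh and mCherryLow 5 of the 6 were lower with a median of -0.26, limma, edgeR and DESeq2 called 0, and 0 had an unadjusted limma p under 0.05. Against mCherryLow, Ptcd3, a pentatricopeptide repeat protein of the small subunit like Mrps27, fell in DTC from 81.5 ± 27.7 to 28.8 ± 21.2 CPM (SD, n = 3), a log2 difference of -1.70 ± 0.56 (SE; adjusted p = 0.0285). That call was lost without DTC 3 (-1.10, adjusted p = 0.0841). Dap3, a GTP-binding protein of the small subunit, was at 117 ± 21.4, 113 ± 28.2 and 96.4 ± 1.09 CPM in the 3 groups (SD, n = 3). No gene of the list was called between DTC and mCherryHigh by limma, edgeR or DESeq2, and 0 had an unadjusted limma p under 0.05.

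Genes for factors that work on or build the ribosome had few limma calls. Of 15 mitochondrial translation factors, limma called 0 between mCherryHigh and mCherryLow (median -0.16), with 1 lower at an unadjusted p under 0.05. Between DTC and mCherryLow limma also called 0 (median -0.07), with 3 higher at an unadjusted p under 0.05. There edgeR called 1 lower, Gfm1, beside 16.6% of all genes, and DESeq2 called 0. Between DTC and mCherryHigh 2 of 15 were higher, beside 23% of all genes: Gfm2, a recycling factor (78.6 ± 18.7 against 25.3 ± 5.73 CPM; adjusted p = 0.0160), and Guf1, the counterpart of bacterial elongation factor 4 (105 ± 27.9 against 37.4 ± 21.6 CPM, SD, n = 3; adjusted p = 0.0257). Without DTC 3 the 2 called were Gfm2 and Tufm, the elongation factor that delivers transfer RNAs. With all libraries, edgeR called 0 (2 higher at an unadjusted p under 0.05) and DESeq2 2 higher, the latter beside 21.3% of all genes. Of 26 assembly and ribosomal RNA modification genes, 0 were called in mCherryHigh (median -0.12; 5 lower at an unadjusted p under 0.05) and 2 were higher in DTC than in mCherryLow, beside 34.2% of all genes. These were Ybey, an endoribonuclease (34.7 ± 6.17 against 9.26 ± 3.14 CPM; adjusted p = 0.0110), and the GTPase Gtpbp10 (41.3 ± 9.65 against 13 ± 9.70 CPM, SD, n = 3; adjusted p = 0.0219). Without DTC 3 Ybey was higher and Rpusd3 lower. With all libraries, edgeR called 0 higher and 4 lower, beside 24.4% and 16.6% of all genes. DESeq2 called 1 higher and 7 lower, beside 27.5% and 15.7%. Against mCherryHigh 3 of the 26 were higher in DTC and 2 lower, beside 23% and 7.19% of all genes, and without DTC 3 limma called only Rpusd3, lower. With all libraries, edgeR called 0 higher and 2 lower, beside 15.9% and 10.8% of all genes. DESeq2 called 1 higher and 2 lower, beside 21.3% and 10.7%.

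Of 16 genes that copy, transcribe or process the mitochondrial genome, 2 were higher and 4 lower in DTC than in mCherryLow, beside 34.2% and 8.87% of all genes. The 2 were Tfam, which packages mitochondrial DNA (85.6 ± 16.3 against 38.4 ± 12.7 CPM; adjusted p = 0.0324), and the single-strand binding protein Ssbp1 (117 ± 11.98 against 48.9 ± 16.2 CPM, SD, n = 3; adjusted p = 0.0165). The 4 were the RNA polymerase Polrmt (12.4 ± 5.39 against 69.4 ± 56 CPM; adjusted p = 0.0213), the transfer RNA processing genes Elac2 (29.7 ± 16.4 against 89.8 ± 29.2 CPM; adjusted p = 0.0178) and Hsd17b10 (30.4 ± 6.82 against 78.4 ± 8.90 CPM; adjusted p = 0.0141), and the exoribonuclease Pnpt1 (41.1 ± 43.3 against 130 ± 22.9 CPM, SD, n = 3; adjusted p = 0.0137). Without DTC 3 the calls were Tfam and Ssbp1, higher, and Hsd17b10, lower. With edgeR these 4 lower genes and 3 others were lower and 0 were higher, beside 16.6% and 24.4% of all genes. Tfam and Ssbp1 were thus called by limma alone of these 2 tests. In mCherryHigh the list had 0 calls by limma and edgeR, a median of -0.13 and 2 lower genes at an unadjusted p under 0.05. Of 9 regulators of mitochondrial biogenesis, limma called 1 higher in DTC than in mCherryLow and 0 lower, beside 34.2% and 8.87% of all genes. It was Ppargc1a, a coactivator of such genes (47.5 ± 16.7 against 12.7 ± 7.10 CPM, SD, n = 3, limma adjusted p = 0.0140). That gene was also called without DTC 3, but not with edgeR. For this list edgeR called 0 higher and 1 lower, beside 24.4% and 16.6% of all genes. DESeq2 called 1 higher and 1 lower, beside 27.5% and 15.7%. Nrf1, the factor whose motif was counted above, was at 76.7 ± 23.5 CPM in mCherryLow, 42.2 ± 13.98 CPM in mCherryHigh and 131 ± 58.5 CPM in DTC (SD, n = 3). It was higher in DTC than in mCherryHigh (1.57, limma adjusted p = 0.0219), as was Gabpb1, a partner of GABPA (1.16, limma adjusted p = 0.0391). These were 2 of the 9 regulators, beside 23% of all genes called higher. Both calls were lost without DTC 3, where the differences were 1.24 for Nrf1 (limma adjusted p = 0.0724) and 1.14 for Gabpb1 (limma adjusted p = 0.0595). Neither limma difference passed between mCherryHigh and mCherryLow (adjusted p = 0.544 and 0.557).

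Of the 82 nuclear-encoded respiratory chain subunits, more had calls in DTC, though a difference from the ribosomal members was not tested. Of 79 tested against mCherryLow, 8 were higher and 23 lower with a median of -0.58, beside 34.2% and 8.87% of all genes. Without DTC 3 there were 7 and 19, beside 30.9% and 7.02%, with a median of -0.46. Their summed CPM was 15354 ± 1255 in mCherryLow, 13179 ± 783 in mCherryHigh and 9192 ± 1596 in DTC (SD, n = 3). Of 76 cytosolic ribosomal proteins, 63 were called higher and 0 lower in DTC than in mCherryLow, beside 34.2% and 8.87% of all genes (74 of 76 higher by direction, median 2.38), with a sum of 4945 ± 734 CPM in mCherryLow, 4115 ± 721 CPM in mCherryHigh and 13935 ± 4456 CPM in DTC (SD, n = 3). These are genes with many near-identical copies, so their levels are uncertain, and whether the DTC libraries were aligned and counted like the others, on which such levels depend, was not tested. The table lists 0 genes encoded by the mitochondrial genome, so the messages that these ribosomes translate were not analysed here.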

How the data were processed

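Per the labels' protocols, total RNA from an RNAqueous-Micro kit went into SMART-seq v4 and Nextera XT libraries, kits that do not mark the strand. Reads were mapped to mm9, per the submitters' processing notes; aligner and counter: not given in the sources used here. All 9 columns of the deposited table matched a sample, and the authors deposited CPM for 24012 genes in it. All values (100%) were whole multiples of the value of 1 read within 0.01 read, so reads and library totals (643748 to 11861241) were recovered.

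A gene entered a comparison if 3 or more of its 6 libraries reached 1 CPM. limma 3.58.1 (R 4.3.3) was fitted to log2(CPM + 1) with group as the one term and its trend option on; p-values are two-sided, adjusted by Benjamini-Hochberg over all genes tested, with a threshold of 0.05. Fold changes on this scale understate the change of low genes. edgeR 4.0.16 (quasi-likelihood, TMM) and DESeq2 1.42.0 were run on the recovered reads as alternatives; the procedure was tested on simulated data. Other settings were pseudocounts, filters, scalings, array weights, 1 fit of all 9 libraries, members with unique windows alone, leaving out each library, the label number as a block and the code series as a term. Rescaling without Gm10800, Gm10801 and Lars2 and the list counts without DTC 3 were added after the data were seen.

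The members and lists were chosen with earlier results of these data known. Named members are those past the threshold (up to 10 a direction, or the 5 with the smallest p where fewer than 5 passed), the 5 highest and 3 lowest per kilobase, and a fixed set. Transcript lengths and windows came from GENCODE M21 (GRCm38), matched by gene ID except 1 member matched by symbol, and promoters from RefSeq (GRCm38.p6), a later build than mm9. Other label details are not reported here.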

Additional observations from a re-analysis of the deposited data

How the results depend on the processing

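Between mCherryHigh and mCherryLow the median member difference stayed negative under every setting run, from -0.29 to -0.38 when a library was left out and -0.49 with edgeR, and the calls stayed at 0 except for 1 lower with DESeq2. Whether the replicate numbers pair the libraries is not stated. Deviations from the group mean correlated at -0.20, -0.02 and 0.27 for same-numbered libraries and at -0.44 to 0.33 for the others. With means of only 3 libraries a group, these values cannot decide whether the libraries are paired. With the number as a replicate block there were 0 calls and a median of -0.33. Between DTC and mCherryLow, members called lower numbered 2 without a filter, 2 without a trend, 23 with median-of-ratios scaling, 22 with edgeR, 22 with DESeq2 and 1 with CPM rescaled without Gm10800, Gm10801 and Lars2. Members called higher numbered 0 with quantile normalization, 2 in 1 fit of all 9 libraries, 5 with array weights, 0 among members with unique windows alone (Mrpl23 falls out) and 4 after the rescaling. The median was -0.90 with edgeR. Leaving out 1 library gave 1 to 7 lower, 1 to 2 higher and medians of -0.68 to -0.10, the last without DTC 3. Between DTC and mCherryHigh, members called higher numbered 2 with quantile normalization, 9 with array weights, 0 with edgeR, 2 with DESeq2 and 2 with unique windows alone. Members called lower numbered 2 with median-of-ratios scaling, 2 in 1 fit of all 9 libraries, 0 without a trend, 2 with array weights, 3 with edgeR and 2 with DESeq2. The median turned positive with array weights (0.18) and after the rescaling (0.055), and leaving out 1 library gave 0 to 5 higher, 0 to 1 lower and medians of -0.28 to 0.22. For these shifts the cause was not tested. Shares of all genes called are given above only for the main fits, edgeR, DESeq2 and the fits without DTC 3. The counts under the other settings therefore show how far the calls of members move, and not whether members differ from other genes. Of 1303 values of named members under these settings 26 lost a call, 43 gained one and 0 called values changed sign, and of 588 with a library left out 31 lost, 4 gained and 0 changed sign. In promoters from 100 bases before to 50 after the start, the ETS, NRF1 and YY1 shares of members were 28.8%, 16.4% and 13.7%, against 6.59%, 4.61% and 3.48% of all. Depth limits the lowest members most: 3 members in mCherryHigh 1, 2 in DTC 3 and 2 in mCherryLow 1 had fewer than 3 reads.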
